A study of Rattus norvegicus with 6 samples.

Results

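The Zfp genes are rodent genes named for their zinc fingers, and 154 table rows of such genes, called features here, were expressed in cultured ventricular muscle cells of the newborn rat heart, the neonatal rat ventricular myocytes (NRVM). The members were chosen by symbol and by level, as every row whose symbol is Zfp followed by a number and whose mean over the 6 libraries reached 1 FPKM (fragments per kilobase of transcript, scaled to the size of the library). Zfp36, Zfp36l1 and Zfp36l2 were left out because they belong to the family of CCCH-type RNA-binding proteins. The rule kept 154 of 168 Zfp features, out of 13843 features in the table, and these 154 carry 150 distinct symbols because Zfp322a, Zfp653 and Zfp84 stand on 7 rows in all. Only the mean level entered the rule. The limit cut through a continuous range: Zfp483, Zfp286a and Zfp667 lay just inside it at means of 1.05, 1.21 and 1.22 FPKM, and Zfp94, Zfp786 and Zfp316 just outside at 0.978, 0.942 and 0.937 FPKM.

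RNA sequencing covered 3 groups of 2 libraries, all of them with phenylephrine (PE), which activates alpha-1 adrenergic receptors and enlarges cardiomyocytes in culture. The PE+TSA+shJIP1 group had PE, TSA and a short hairpin RNA against JIP1, the PE+TSA group had PE, TSA and a control hairpin, and the PE group had PE and the control hairpin, all for 3 days. The labels give TSA only as letters, which usually stand for trichostatin A, a compound that blocks histone deacetylases. JIP1 is the product of Mapk8ip1 and holds kinases of the JNK pathway together, and the labels call its group a knockout in one place and name a hairpin in another. Cultures without PE, and the JIP1 hairpin without TSA, were not analysed here. Nothing says whether the 2 libraries of a group are separate cultures, and p-values therefore cover only the spread between these libraries, possibly technical. In bulk RNA, fewer cells of a type and less RNA per cell cannot be told apart.

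Most proteins of the Zfp genes carry arrays of C2H2 zinc fingers, small folds held by a zinc ion that read bases along the DNA groove. Many also carry a KRAB domain, which binds the corepressor TRIM28 and through it brings in the histone methyltransferase SETDB1, HP1 proteins and the histone deacetylases of the NuRD complex, and so silences transposons and other targets. Others act as activators, as partners of other factors, or on RNA and ribosomes.

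The libraries differed in depth. PE replicate 2 had 0.048 of the depth of PE replicate 1, judged from the steps between low values, and the other 4 libraries had 0.722 to 1.34 of it. PE replicate 2 listed 3667 features of the table at 0 and the other libraries 1407 to 1837. Among the expressed Zfp features 9 were listed at 0 in PE replicate 2 and 0 in every other library. Mapk8ip1, the target of the hairpin, was at 1.8 and 3.65 FPKM in PE+TSA+shJIP1, 14.6 and 17.9 FPKM in PE+TSA, and 3.77 and 4.39 FPKM in PE. Its hairpin libraries were the lowest of the 6, and the change against PE+TSA did not pass the adjusted threshold (log2 change -2.25 ± 0.34 SE, limma adjusted p = 0.077). Of 10 listed markers of heart muscle, 9 were in the table. Their levels summed to 5565 to 9941 FPKM in PE+TSA+shJIP1, 5399 to 9609 FPKM in PE+TSA and 15619 to 19025 FPKM in PE. Tnnt2, Myl2 and Nppa, at means of 4244, 2808 and 2235 FPKM, carried most of these sums. In PE+TSA against PE 0 of the 9 passed the adjusted threshold (limma), where 0.811% of all features did. Fibroblast markers (8 of 8 in the table, Col1a2 near 0) summed to 563 to 682, 534 to 744 and 1039 to 1680 FPKM in the same order of groups, and smooth muscle and pericyte markers (6 of 6) to 486 to 510, 248 to 390 and 1316 to 1637 FPKM. Within the fibroblast list Thy1 ran against the sum, at 10.9 and 17.3 FPKM in PE+TSA+shJIP1, 20.9 and 24.7 FPKM in PE+TSA, and 3.29 and 1.56 FPKM in PE. It rose in PE+TSA against PE (log2 change 2.84 ± 0.36 SE, limma adjusted p = 0.0373), while Col1a1, which carries most of the sum, did not pass in that comparison. Endothelial markers (6 of 6) summed to 11.1 to 15.3, 18.7 to 38.2 and 15.4 to 16.1 FPKM, macrophage markers (6 of 6, C1qa at 0 in all libraries but PE replicate 1) to 5.15 to 8.01, 7.03 to 13.2 and 12.0 to 16.0 FPKM, and Schwann cell and neural crest markers (4 of 4, Sox10 at 0 in all libraries but PE replicate 1) to 1.43 to 1.67, 1.84 to 2.65 and 0.687 to 2.73 FPKM. Markers of a list did not all move alike. Of the smooth muscle list, Tagln went with the sum, at 229 and 241 FPKM in PE+TSA+shJIP1, against 99.6 and 45.6 FPKM in PE+TSA. Cnn1 was also higher there, while Acta2 overlapped and Myh11 was lower. Kdr carried most of the endothelial sum in PE+TSA, at 11.9 and 30.1 FPKM, while Egfl7 and Tek were higher in PE+TSA+shJIP1 than in PE+TSA. Besides Thy1, Acta2 passed the adjusted threshold in PE+TSA against PE, as a fall (log2 change -2.43 ± 0.29 SE, limma adjusted p = 0.0332). In PE+TSA+shJIP1 against PE, Acta2, Tnni3, Dcn and Myh11 passed as lower and Thy1 as higher (limma adjusted p = 0.0143, 0.0275, 0.0338, 0.0416 and 0.026). Over all features 8.27% passed there. The part of these shifts in marker levels in the changes below was not tested.

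5 promoters are shown because they belong to Zfp genes on which the comparisons turn: Zfp575, Zfp13 and Zfp40, which were low in PE, Zfp281, which was highest with the hairpin, and Zfp414, which was lowest with it. Each is the 250 bases before the RefSeq start of the gene in the assembly GRCr8, written 5′ to 3′ on the gene's own strand, with CpG dinucleotides in capitals. They lie at chr1:89305035-89305284 on the minus strand (Zfp575), chr10:13128244-13128493 on the minus strand (Zfp13), chr1:71658767-71659016 on the minus strand (Zfp40), chr13:50647572-50647821 on the plus strand (Zfp281) and chr7:15122170-15122419 on the plus strand (Zfp414).
Zfp575: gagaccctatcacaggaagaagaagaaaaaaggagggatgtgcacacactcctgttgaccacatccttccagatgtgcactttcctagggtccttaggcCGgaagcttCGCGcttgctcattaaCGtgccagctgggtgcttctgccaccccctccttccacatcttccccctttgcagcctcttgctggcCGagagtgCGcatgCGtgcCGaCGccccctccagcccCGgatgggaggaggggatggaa
Zfp13: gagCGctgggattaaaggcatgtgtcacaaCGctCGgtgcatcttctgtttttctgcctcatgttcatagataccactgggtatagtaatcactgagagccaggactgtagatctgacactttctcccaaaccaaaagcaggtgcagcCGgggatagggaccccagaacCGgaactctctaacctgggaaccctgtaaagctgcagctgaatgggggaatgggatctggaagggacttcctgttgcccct
Zfp40: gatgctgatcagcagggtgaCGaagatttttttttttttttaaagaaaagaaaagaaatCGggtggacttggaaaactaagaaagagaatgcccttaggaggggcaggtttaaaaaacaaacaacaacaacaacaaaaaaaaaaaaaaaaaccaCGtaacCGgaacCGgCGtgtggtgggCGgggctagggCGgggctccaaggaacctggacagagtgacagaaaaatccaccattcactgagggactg
Zfp281: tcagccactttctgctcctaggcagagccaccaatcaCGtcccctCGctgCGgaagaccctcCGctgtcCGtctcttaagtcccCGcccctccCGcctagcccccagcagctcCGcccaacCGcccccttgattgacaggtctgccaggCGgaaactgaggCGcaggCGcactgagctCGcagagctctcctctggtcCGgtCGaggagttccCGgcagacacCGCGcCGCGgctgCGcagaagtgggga
Zfp414: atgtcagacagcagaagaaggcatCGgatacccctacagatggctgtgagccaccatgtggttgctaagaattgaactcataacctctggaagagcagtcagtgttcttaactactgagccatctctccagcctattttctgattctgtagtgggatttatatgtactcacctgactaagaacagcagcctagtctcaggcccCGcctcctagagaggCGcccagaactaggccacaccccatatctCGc

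The Zfp281 promoter held 21 CpG dinucleotides and 67.2% G and C, against 10, 5, 8 and 4 CpG in those of Zfp575, Zfp13, Zfp40 and Zfp414. The GC box GGGCGG, the core of sites bound by Sp1-type factors, occurred 3 times in the Zfp281 promoter and 2 times in that of Zfp40 on either strand, and at 0 places in the other 3. Promoter sequence was given for 120 of the 150 symbols. The promoter of Zfp772 and Zfp978, which point to the same gene, was counted for each symbol. The median CpG count of the 120 was 14, against 17 in 8153 tested genes and 6 in all 27457 promoters of the RefSeq table. A GC box was present in 49.2% of the Zfp promoters, 61.0% of those of the tested genes and 32.4% of all. These matches describe letters in a window and were not set against binding data.

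The family was expressed broadly and at modest levels. The median expressed Zfp feature averaged 6.45 FPKM (quartiles 3.66 and 11.8), against 12.3 FPKM (quartiles 5.04 and 29.2) over the 10359 features tested. Of the 154, 13 averaged 1 to 2 FPKM, 45 averaged 2 to 5, 42 averaged 5 to 10, 39 averaged 10 to 20, 12 averaged 20 to 50, and 3 averaged more. All 3 groups averaged at least 1 FPKM for 143 features, and 145 were above 0 in all 6 libraries. The other 11 averaged under 1 FPKM in at least 1 group: 1 in PE+TSA+shJIP1, 2 in PE+TSA and 9 in PE. Those 9 are the features listed at 0 in PE replicate 2, the shallow library, and the part of depth in their low PE averages was not tested.

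**Figure D1:**
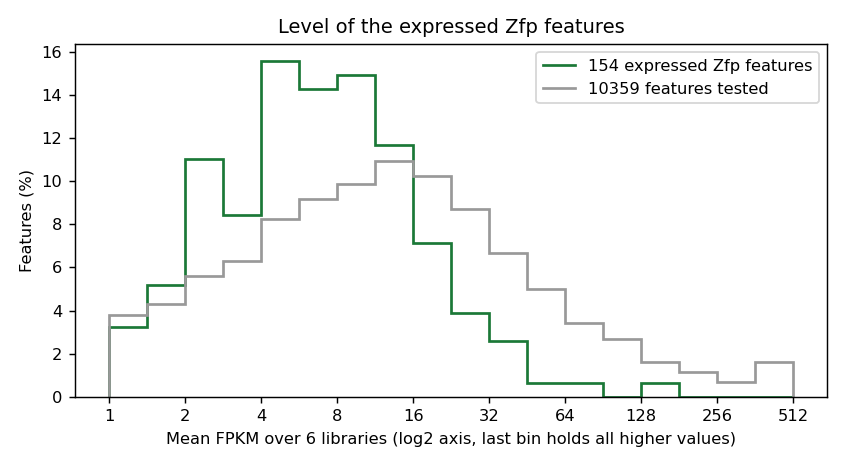
The share of features (%) is plotted against mean FPKM over the 6 libraries on a log2 axis, for the 154 expressed Zfp features (green) and all 10359 features tested (grey). The Zfp features sit lower, with a median of 6.45 FPKM against 12.3 FPKM.

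Zfp37, known in mouse from testis and neurons, was the most abundant Zfp transcript and held 9.46% of the summed mean level of the expressed Zfp features. It was measured at 353 and 128 FPKM in PE+TSA+shJIP1, 92.8 and 89.2 FPKM in PE+TSA, and 145 and 102 FPKM in PE. PE+TSA+shJIP1 replicate 1 stood above the other 5 libraries, and the gap to its replicate was 1.46 on the log2(FPKM + 1) scale. Zfp385a, which encodes the p53 cofactor and RNA-binding protein Hzf, came next at 42.9 and 66.8 FPKM in PE+TSA+shJIP1, 80.6 and 89.7 FPKM in PE+TSA, and 51.2 and 65.2 FPKM in PE. Its PE+TSA libraries were above all others.

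A pair of abundant members encode ubiquitin ligases, and neither passed the adjusted threshold in any comparison (limma). Over all features 0.811% passed in PE+TSA against PE. In PE+TSA+shJIP1, 0.29% passed against PE+TSA and 8.27% against PE. Zfp91, a ligase that acts on the NF-kappaB-inducing kinase NIK, was at 47.7 and 36.2 FPKM in PE+TSA+shJIP1, 69.3 and 52.3 FPKM in PE+TSA, and 64.2 and 47.5 FPKM in PE. Zfp598, the ligase that marks collided ribosomes, was at 23.9 and 39.2 FPKM, 32.4 and 56.4 FPKM, and 41.3 and 41.7 FPKM in the same 3 groups. Replicates of both overlapped between PE+TSA and PE. The hairpin libraries of Zfp91 lay under both of its PE+TSA libraries (log2 change -0.52 ± 0.27 SE, limma adjusted p = 0.426). Those of Zfp598 overlapped PE+TSA and lay under both of its PE libraries. Zfp507 averaged 38.7 FPKM and Zfp64 32.5 FPKM, which completes the 6 highest.

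Among members averaging at least 3 FPKM, the narrowest ranges were those of Zfp295, Zfp384 and Zfp280d, whose values spanned 0.29, 0.37 and 0.37 on the log2(FPKM + 1) scale over all 6 libraries. Zfp384 encodes the nuclear matrix factor CIZ/NMP4 and was at 28.3 and 25.2 FPKM in PE+TSA+shJIP1, 31.3 and 30.3 FPKM in PE+TSA, and 32.8 and 32.7 FPKM in PE. Zfp295, an older symbol of the BTB-domain factor Zbtb21, was at 10.4 and 9.33 FPKM, 9.15 and 8.34 FPKM, and 8.93 and 8.74 FPKM in those groups. Over the family, 79 of 154 features spanned less than 1 on that scale across the 6 libraries. The share over all features was not counted, and this scale narrows the ranges of low genes.

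Replicates of the Zfp features differed by a median of 0.368 log2 units in PE+TSA+shJIP1, 0.245 in PE+TSA and 0.43 in PE, against 0.304, 0.303 and 0.385 over all features tested. Single features differed far more, and the following were picked after their values were seen. Zfp346, a double-stranded RNA binding protein, was at 13.7 and 30.8 FPKM in PE+TSA+shJIP1, 41.9 and 19.6 FPKM in PE+TSA, and 40.5 and 2.38 FPKM in PE, a gap of 3.62 on the log2 scale between the PE replicates. Zfp637 was at 9.11 and 4.7, 9.07 and 5.13, and 12.4 and 1.9 FPKM in those groups. In both genes the shallow PE replicate 2 was the lowest library.

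**Figure D2:**
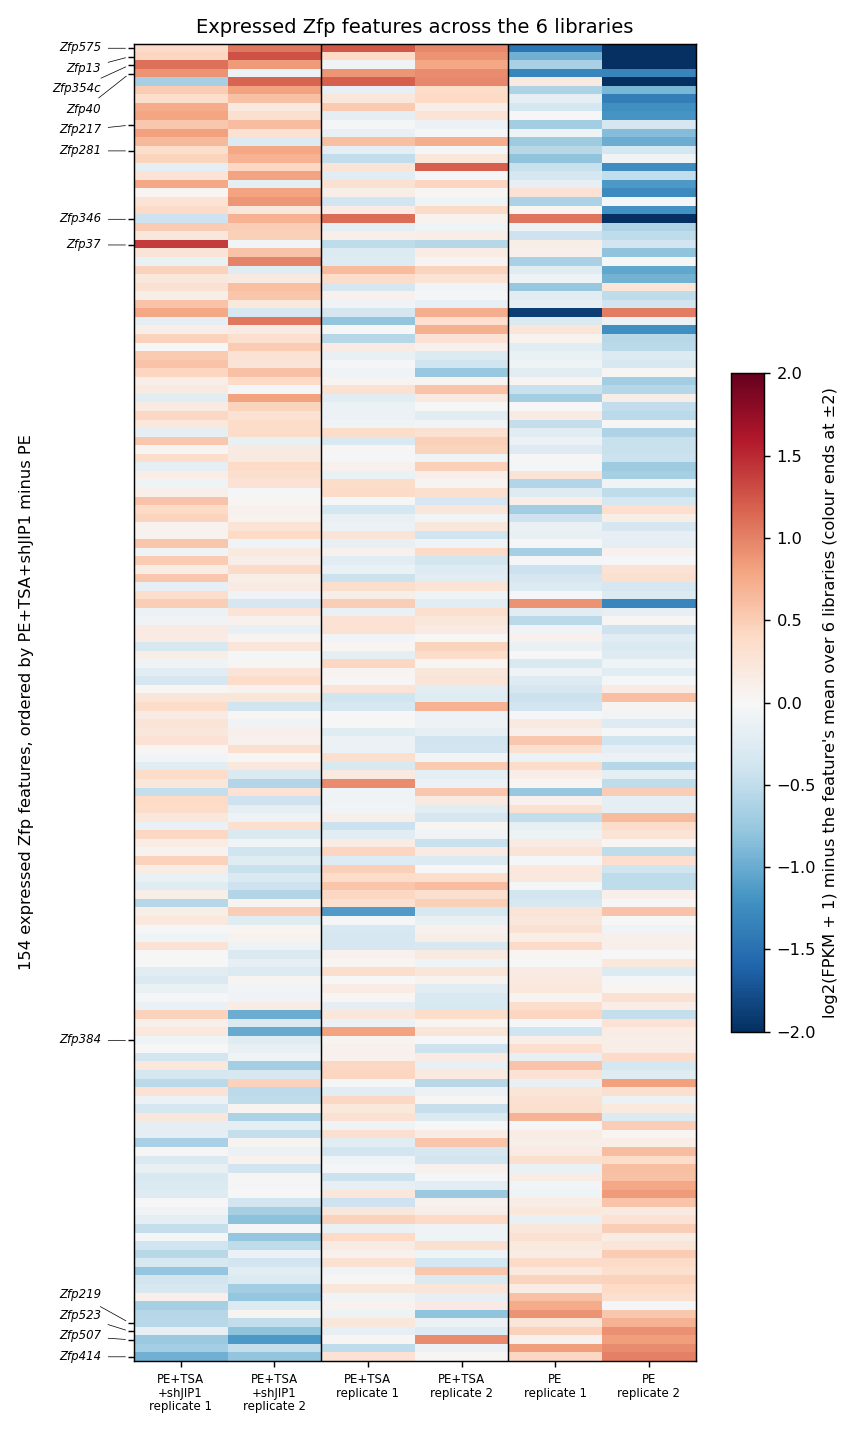
Each row is 1 of the 154 expressed Zfp features and each column 1 library; colour shows log2(FPKM + 1) minus the feature's own mean over the 6 libraries, cut off at ±2. Most rows stay pale in all 6 columns, and many of the darkest cells lie in PE replicate 2 among the rows at the top, such as Zfp575 and Zfp13.

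PE+TSA against PE addresses the effect of TSA on myocytes that receive PE. The middle of the Zfp family lay near that of all genes: the median log2 change of the 154 features was 0.114, beside 0.097 over all features tested, and with quantile normalization it was -0.04, beside -0.021. In all, 92 members lay above 0, 59.7% beside 56.9% of all features. Only Zfp575 passed the adjusted threshold, a rise. That is 1 of 154 Zfp features, where 0.811% of all features passed, 0.627% higher and 0.183% lower (limma, Benjamini-Hochberg adjusted p under 0.05). At an unadjusted p under 0.05 there were 11 higher and 5 lower Zfp features, 10.4% of the family beside a background of 18.7%, of which 11.6% were higher and 7.1% lower. The PE+TSA and PE libraries did not overlap for 45 higher and 27 lower members, 29.2% and 17.5%, beside 29.5% and 21.1% of all features. Changes past 1 on the log2 scale were found in 15 members, 9.74% beside 15.7%.

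Zfp575 was nearly silent in PE. It was at 9.74 and 7.84 FPKM in PE+TSA, against 0.652 FPKM in PE replicate 1 and a listed 0 in PE replicate 2. Both PE+TSA libraries lay far above both PE libraries, and the log2 change on the log2(FPKM + 1) scale was 2.92 ± 0.41 (SE, limma adjusted p = 0.0454, n = 2 each). It passed the filter on low values only through the groups where it is high. The call did not hold without PE replicate 2 (adjusted p = 0.182), without PE+TSA replicate 1 (0.194) or replicate 2 (0.358), or without PE+TSA+shJIP1 replicate 1 (0.127) or replicate 2 (0.129), and over all 16 alternatives the adjusted p ran from 0.0339 to 0.358.

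The next largest values were those of Zfp472, Zfp40 and Zfp13, and none of them passed the adjusted threshold. Zfp40 was at 11.1 and 11.6 FPKM in PE+TSA, against 1.65 and 1.63 FPKM in PE. Its replicates lay close together in both groups, with a log2 change of 2.23 ± 0.39 (SE, limma adjusted p = 0.0747), and unlike Zfp575 it was detected at nearly the same level in both PE libraries. Zfp13 was at 4.42 and 6.68 FPKM in PE+TSA, against 1.12 FPKM and a listed 0 in PE (log2 change 2.15 ± 0.51, limma adjusted p = 0.125). Zfp472 was at 30.7 and 26.1 FPKM in PE+TSA, against 14.8 and 0.917 FPKM in PE, with a wide gap between the PE libraries: its change of 2.41 ± 1.03 became 3.93 without PE replicate 1 and 0.89 without PE replicate 2.

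On the other side, members that were lower in PE+TSA than in PE all stayed short of the adjusted threshold. Zfp524 was at 4.98 and 2.68 FPKM in PE+TSA, against 10.9 and 8.28 FPKM in PE (log2 change -1.17 ± 0.39, limma adjusted p = 0.194). Zfp523, the ortholog of human ZNF76 and a relative of the activator Zfp143, was at 7.05 and 6.48 FPKM in PE+TSA, against 11.4 and 16.0 FPKM in PE (log2 change -0.9 ± 0.33, adjusted p = 0.222). In each of the 2 the groups did not overlap.

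Symbols on several rows gave unlike readings between their listings. Listing 1 of Zfp322a, known in mouse embryonic stem cells as a pluripotency factor, was at 3.65 and 4.99 FPKM in PE+TSA+shJIP1, 0.952 and 2.43 FPKM in PE+TSA, and 4.12 and 5.35 FPKM in PE. Listing 2 was at 19.3 and 7.77, 29.9 and 19.8, and 12.3 and 18.5 FPKM in those groups. The first listing was thus lowest, and the second highest, in PE+TSA, and neither passed the adjusted threshold in any comparison. The 3 listings of Zfp84 averaged 2.57, 10.2 and 12.5 FPKM; listing 2 was at 7.34 and 7.71 FPKM in PE+TSA, against 11.1 and 15.7 FPKM in PE, while listing 3 was at 11.4 and 14.6 FPKM, against 11.2 and 9.63 FPKM. The 2 listings of Zfp653 averaged 2.07 and 3.47 FPKM, and listing 2 was at 2.88e-05 and 6.5 FPKM in the PE libraries. Reads may have been split between listings, so these rows are uncertain as measures of their genes.

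**Figure D3:**
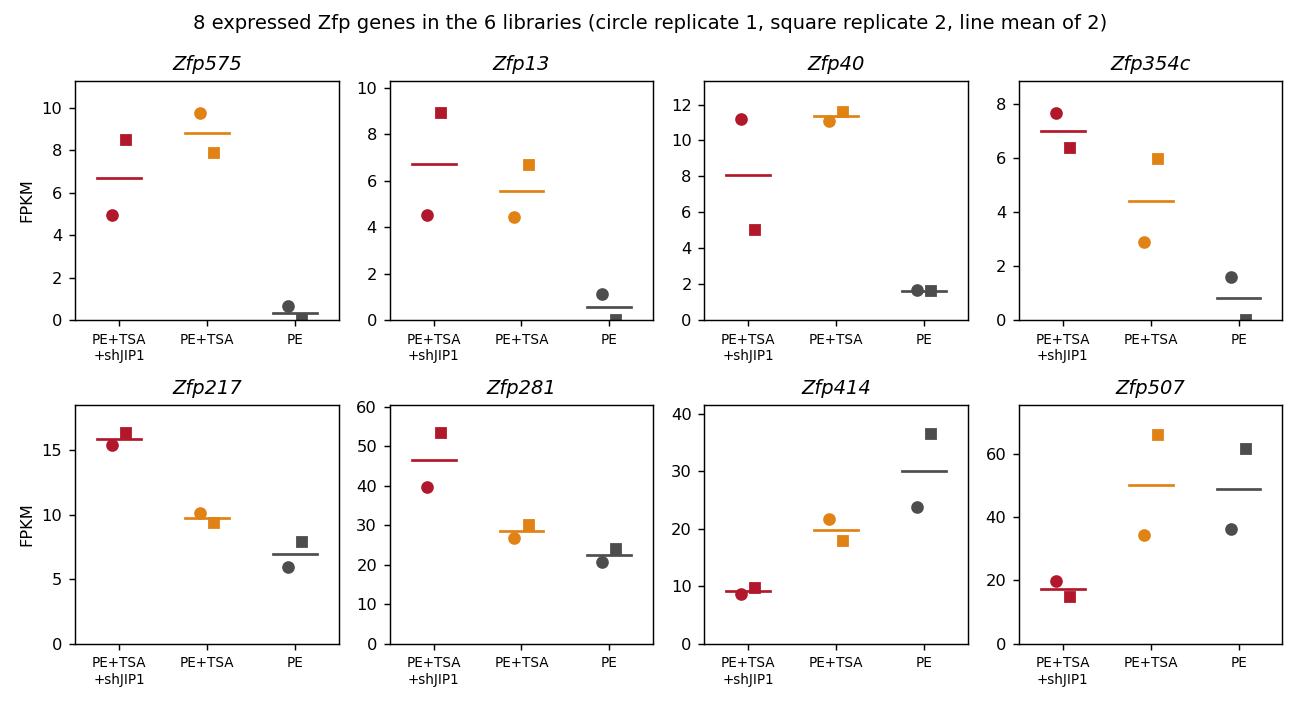
FPKM of 8 Zfp genes is plotted for each library in PE+TSA+shJIP1 (red), PE+TSA (orange) and PE (grey); circles are replicate 1, squares replicate 2 and lines the mean of 2. Zfp575, Zfp13, Zfp40 and Zfp354c are low in PE, Zfp217 and Zfp281 are highest and Zfp414 and Zfp507 lowest in PE+TSA+shJIP1.

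PE+TSA+shJIP1 against PE+TSA addresses the effect of the hairpin on cells that receive PE and TSA. No Zfp feature passed the adjusted threshold, where 0.29% of all features did, 0.183% higher and 0.106% lower (limma). At an unadjusted p under 0.05 there were 7 higher and 7 lower Zfp features, 9.09% beside 14.9% of all, of which 5.93% were higher and 8.94% lower. The median log2 change was 0.028, beside -0.003 over all features. Above 0 lay 78 members, 50.6% beside 49.7%, and 4 members had a log2 change past 1 either way, 2.6% beside 9.77%. The libraries did not overlap for 43 higher and 31 lower members, 27.9% and 20.1%, beside 24.9% and 25.1%.

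The lowest relative value belonged to Zfp507, at 19.8 and 14.7 FPKM in PE+TSA+shJIP1, against 34.4 and 66.0 FPKM in PE+TSA, a log2 change of -1.43 ± 0.4 (SE) with a limma adjusted p of 0.192. Zfp414 was at 8.57 and 9.72 FPKM in PE+TSA+shJIP1, against 21.7 and 17.9 FPKM in PE+TSA, a change of -1.03 ± 0.28 (adjusted p = 0.18). Both hairpin libraries lay under both PE+TSA libraries in these genes. Zfp763 was at 2.09 and 0.998 FPKM, against 3.84 and 3.63 FPKM (log2 change -0.93 ± 0.39, adjusted p = 0.34; -0.61 without PE+TSA+shJIP1 replicate 2).

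Higher values with the hairpin were led by Zfp37, at 353 and 128 FPKM in PE+TSA+shJIP1, against 92.8 and 89.2 FPKM in PE+TSA, a log2 change of 1.22 ± 0.47 with a limma adjusted p of 0.31. That change was 0.49 without PE+TSA+shJIP1 replicate 1 and 1.94 without replicate 2. Zfp652, a transcriptional repressor, was at 7.95 and 8.97 FPKM, against 5.29 and 2.93 FPKM (log2 change 0.93 ± 0.33, adjusted p = 0.274). Zfp516, which in mouse activates genes of brown fat, was at 14.3 and 22.3 FPKM in PE+TSA+shJIP1, against 8.74 and 10.9 FPKM in PE+TSA, a change of 0.81 ± 0.33 (adjusted p = 0.33). In each of these genes the groups were separate, and none passed the threshold over all features. The change was 0.59 in Zfp652 without PE+TSA replicate 2 and 0.51 in Zfp516 without PE+TSA+shJIP1 replicate 2.

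The third comparison sets PE+TSA+shJIP1 against PE, and it shares libraries with each of the other comparisons. Of the expressed Zfp genes, Zfp575, Zfp13, Zfp217 and Zfp281 rose and Zfp414 fell. These 5 are 3.25% of the family, where 8.27% of all features passed, 4.11% higher and 4.16% lower (limma, adjusted p under 0.05). At an unadjusted p under 0.05 there were 17 higher and 10 lower members, 17.5% beside 30.7%, of which 17.1% were higher and 13.6% lower. Changes past 1 on the log2 scale were found in 18 members, 11.7% beside 24.0%, and the median change was 0.148, beside 0.103 over all features, with 90 members above 0, 58.4% beside 55.4%. The libraries did not overlap for 47 higher and 34 lower members, 30.5% and 22.1%, beside 33.9% and 26.7%.

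Zfp575 was at 4.94 and 8.46 FPKM in PE+TSA+shJIP1, against 0.652 FPKM and a listed 0 in PE (log2 change 2.54 ± 0.41 SE, limma adjusted p = 0.0244). Zfp13 was at 4.52 and 8.9 FPKM in PE+TSA+shJIP1, against 1.12 FPKM and a listed 0 in PE (log2 change 2.34 ± 0.51, adjusted p = 0.0452). Both genes averaged under 1 FPKM in PE and passed the filter through the other groups, and their hairpin libraries overlapped those of PE+TSA.

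Zfp217 and Zfp281 had their PE+TSA libraries between the other groups. Zfp217, whose human counterpart is a repressor that works with CtBP and CoREST, was at 15.4 and 16.3 FPKM in PE+TSA+shJIP1, 10.1 and 9.33 FPKM in PE+TSA, and 5.94 and 7.9 FPKM in PE. The change in PE+TSA+shJIP1 against PE was 1.1 ± 0.25 (SE, limma adjusted p = 0.0489). Zfp281, a regulator of pluripotency in mouse, was at 39.8 and 53.4 FPKM in PE+TSA+shJIP1, 26.9 and 30.0 FPKM in PE+TSA, and 20.8 and 24.1 FPKM in PE, with a change against PE of 1.01 ± 0.23 (adjusted p = 0.0498). No library of one group overlapped another group in either gene, and the changes between neighbouring groups did not pass the adjusted threshold.

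Zfp414 ran the other way, at 8.57 and 9.72 FPKM in PE+TSA+shJIP1, 21.7 and 17.9 FPKM in PE+TSA, and 23.7 and 36.4 FPKM in PE. The groups were again separate, and the change against PE was -1.58 ± 0.28 (SE, limma adjusted p = 0.0277). Just short of the threshold were Zfp40, at 11.2 and 5.0 FPKM in PE+TSA+shJIP1 against 1.65 and 1.63 FPKM in PE (log2 change 1.69 ± 0.39, adjusted p = 0.051), and Zfp354c. Zfp354c, described in rat as the osteoblast repressor AJ18, was at 7.67 and 6.36 FPKM, against 1.6 FPKM and a listed 0 in PE (log2 change 2.31 ± 0.55, adjusted p = 0.0552). Zfp354c averaged 0.798 FPKM in PE and passed the filter through the other groups, and its 0 lies in the shallow PE replicate 2.

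These calls rest on the full set of libraries. Without PE replicate 2 none of the 5 passed: the adjusted p was 0.0886 for Zfp575, 0.14 for Zfp13, 0.097 for Zfp217, 0.117 for Zfp281 and 0.0988 for Zfp414. None passed either without PE+TSA replicate 1 or 2 or PE+TSA+shJIP1 replicate 1 or 2, with adjusted p-values of 0.0696 to 0.234. Zfp575, Zfp13 and Zfp414 passed without PE replicate 1 (0.0334, 0.0422 and 0.0323), and Zfp217 and Zfp281 did not (0.0872 and 0.0969).

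Lower values with both treatments were also seen, without passing the threshold, in Zfp507, Zfp523 and Zfp219. Zfp507 was at 19.8 and 14.7 FPKM in PE+TSA+shJIP1, against 36.2 and 61.4 FPKM in PE (log2 change -1.41 ± 0.4, limma adjusted p = 0.0748). Zfp219, a partner of the cartilage factor SOX9, was at 7.75 and 8.19 FPKM in PE+TSA+shJIP1, against 14.2 and 19.9 FPKM in PE (log2 change -0.99 ± 0.27, adjusted p = 0.0706). Zfp523 was at 7.06 and 4.14 FPKM, against 11.4 and 16.0 FPKM (log2 change -1.17 ± 0.33, adjusted p = 0.0744). In all 3 both PE+TSA+shJIP1 libraries lay under both PE libraries.

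**Figure D4:**
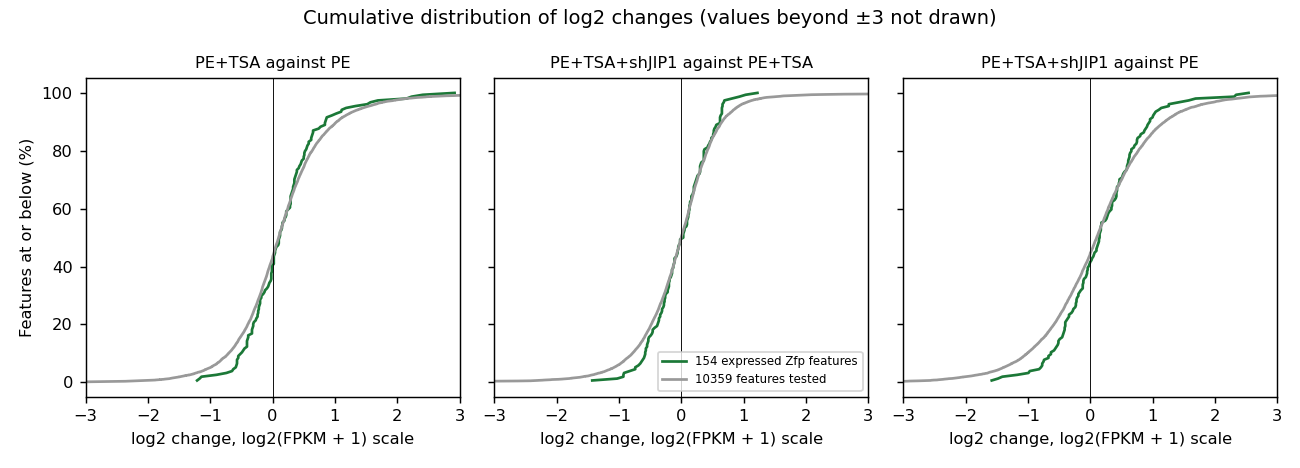
Each panel plots the cumulative share of features (%) against the log2 change on the log2(FPKM + 1) scale, for the 154 expressed Zfp features (green) and all 10359 features tested (grey). The green curves cross 0 near the grey ones and are steeper, with a median absolute change of 0.331, 0.31 and 0.427 in the 3 panels from left to right, against 0.404, 0.351 and 0.536 for all features.

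Members with known roles on RNA, ribosomes or splicing numbered 7 (Zfp346, Zfp385a, Zfp593, Zfp622, Zfp638, Zfp706 and Zfp830), and none passed the adjusted threshold in any comparison (limma). Over all features 0.811% passed in PE+TSA against PE, 0.29% in PE+TSA+shJIP1 against PE+TSA and 8.27% in PE+TSA+shJIP1 against PE. At an unadjusted p under 0.05 there were Zfp638 and Zfp385a in PE+TSA+shJIP1 against PE+TSA and Zfp638 in PE+TSA+shJIP1 against PE, where 14.9% and 30.7% of all features did. Zfp638, a cofactor of the HUSH silencing complex, was at 32.6 and 27.5 FPKM in PE+TSA+shJIP1, 19.9 and 18.3 FPKM in PE+TSA, and 20.3 and 18.2 FPKM in PE. Its hairpin libraries were above the other 4, with a change against PE+TSA of 0.62 ± 0.21 (limma adjusted p = 0.252). The ribosome assembly factor Zfp622 was at 9.33 and 8.29 FPKM, 7.9 and 9.3 FPKM, and 7.13 and 2.43 FPKM in the 3 groups, and the splicing-linked Zfp830 at 19.3 and 21.6, 15.6 and 15.8, and 11.6 and 16.7 FPKM. Neither passed the test, and the low value of Zfp622 lay in the shallow PE replicate 2.

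Among transcriptional regulators, Zfp148, which binds GC-rich promoters, was at 38.0 and 33.6 FPKM in PE+TSA+shJIP1, 28.9 and 27.8 FPKM in PE+TSA, and 30.2 and 21.8 FPKM in PE. Zfp143, an activator that binds many promoters, was at 17.5 and 12.4, 8.31 and 11.9, and 9.72 and 3.73 FPKM in those groups. Both were highest with the hairpin without passing the adjusted threshold. Zfp57, the KRAB protein that in mouse maintains methylation at imprinted regions, was at 5.97 and 6.44 FPKM in PE+TSA+shJIP1, 8.18 and 6.36 FPKM in PE+TSA, and 11.2 and 11.4 FPKM in PE (log2 change in PE+TSA+shJIP1 against PE -0.77 ± 0.25, limma adjusted p = 0.103). Zfp354a, the rat kidney KRAB repressor Kid-1, was at 4.45 and 4.39, 2.39 and 2.61, and 2.58 and 1.49 FPKM. Zfp423, a regulator of fat cell commitment, was at 0.689 and 1.47 FPKM in PE+TSA+shJIP1, 1.76 and 3.21 FPKM in PE+TSA, and 2.3 and 2.59 FPKM in PE, so that its hairpin libraries were the lowest, with an adjusted p of 0.472 against PE+TSA (limma). Zfp90, a partner of the neuronal repressor REST, was at 2.97 and 1.69, 1.97 and 1.64, and 2.81 and 1.74 FPKM, with overlapping groups.

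**Figure D5:**
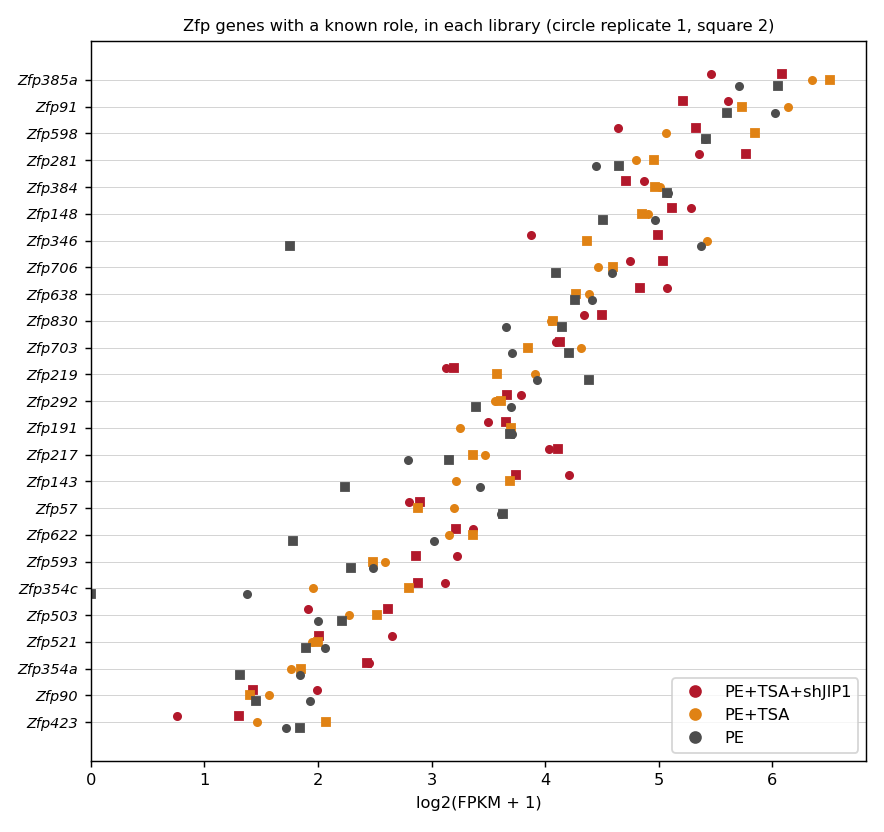
Levels on the log2(FPKM + 1) axis are plotted for the Zfp genes of the role lists, ordered by mean, with each library as a point: PE+TSA+shJIP1 (red), PE+TSA (orange) and PE (grey), circles for replicate 1 and squares for replicate 2. Most genes have all 6 points within a narrow band, while Zfp346 and Zfp354c stretch to low values in PE replicate 2.

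Zfp genes lie partly in runs along the chromosomes. In the gene order of GRCr8, the 150 symbols were placed as 149 genes, because Zfp772 and Zfp978 point to the same gene. Of these genes 27 stood next to another expressed Zfp gene, in 12 runs of which the longest held 4. That run, Zfp26, Zfp426, Zfp266 and Zfp846, held no called gene in any comparison. Few features passed at all: 0.811% in PE+TSA against PE, 0.29% in PE+TSA+shJIP1 against PE+TSA and 8.27% in PE+TSA+shJIP1 against PE. Of the neighbours Zfp51, Zfp53 and Zfp52, Zfp51 was at 0.259 and 0.455 FPKM in PE+TSA+shJIP1, 0.419 and 0.876 FPKM in PE+TSA, and 2.62 and 2.92 FPKM in PE, while Zfp52 was at 10.4 and 12.5, 4.97 and 8.84, and 3.77 and 7.0 FPKM. The PE libraries of Zfp51 were above the other 4, while Zfp52 averaged lowest in PE, and Zfp53 overlapped between groups at 1.2 and 1.6, 2.05 and 0.57, and 1.48 and 3.75 FPKM. Against PE, the log2 change in PE+TSA+shJIP1 was -1.48 ± 0.41 for Zfp51 (limma adjusted p = 0.0744) and 1.0 ± 0.39 for Zfp52 (adjusted p = 0.141). Zfp51 averaged 0.357, 0.647 and 2.77 FPKM in PE+TSA+shJIP1, PE+TSA and PE, so it passed the filter through PE, where it is high. Zfp13, which rose, neighbours Zfp213, at 5.25 and 7.95 FPKM in PE+TSA+shJIP1, 6.05 and 5.65 FPKM in PE+TSA, and 4.46 and 3.31 FPKM in PE.

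A list of 31 genes held the corepressor machinery that KRAB zinc fingers recruit and other heterochromatin genes, such as Suv39h1, Ehmt2 and Dnmt1. Of these 31, 24 were in the table and tested. In PE+TSA against PE 0 of the 24 passed the adjusted threshold (limma; 2 lower at an unadjusted p under 0.05, 8.33% beside 18.7% of all features), with a median log2 change of -0.029, beside 0.097. In PE+TSA+shJIP1 against PE+TSA 0 passed (3 lower at an unadjusted p under 0.05, 12.5% beside 14.9%), with a median of -0.027, beside -0.003. In PE+TSA+shJIP1 against PE 2 passed, both lower, which is 8.33% beside 8.27% of all features, with a median of -0.179, beside 0.103. At an unadjusted p under 0.05 there were 3 higher and 5 lower, 33.3% beside 30.7%. Trim28, the corepressor itself, was at 45.6 and 41.7 FPKM in PE+TSA+shJIP1, 42.0 and 41.2 FPKM in PE+TSA, and 53.0 and 36.3 FPKM in PE, with overlapping groups. Setdb1 was at 14.1 and 17.5, 11.2 and 11.2, and 12.6 and 13.7 FPKM. The 2 that fell were Cbx5, which encodes HP1 alpha, and Mbd3, a subunit of NuRD. Cbx5 was at 17.3 and 14.5 FPKM in PE+TSA+shJIP1, 25.9 and 13.9 FPKM in PE+TSA, and 47.9 and 53.4 FPKM in PE (log2 change against PE -1.61 ± 0.32, limma adjusted p = 0.0362). Mbd3 was at 12.1 and 9.13, 20.3 and 14.7, and 27.8 and 25.4 FPKM (log2 change against PE -1.26 ± 0.26, adjusted p = 0.0402).

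Other C2H2 genes known by other symbols (Zbtb, Zscan, Zkscan, Zim, Zfx, Zhx and Zeb) gave 41 tested features. Of these 0 and 0 passed in PE+TSA against PE and in PE+TSA+shJIP1 against PE+TSA (limma), where 0.811% and 0.29% of all features did. At an unadjusted p under 0.05 there were 3 and 5, 7.32% and 12.2% beside 18.7% and 14.9%. In PE+TSA+shJIP1 against PE 1 passed, 2.44% beside 8.27%. That was Zbtb37, at 9.51 and 7.61 FPKM in PE+TSA+shJIP1, 3.9 and 3.09 FPKM in PE+TSA, and 2.33 and 2.37 FPKM in PE (log2 change against PE 1.51 ± 0.3, limma adjusted p = 0.0372). The medians in the 3 comparisons were -0.009, -0.036 and 0.06, beside 0.097, -0.003 and 0.103 over all features.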

How the data were processed

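The authors deposited 1 table of values per gene with a column for each of 6 libraries. Its header does not state what the values are. Per the submitters' processing notes, Cufflinks and rn6 were used (no version stated), so the deposited values were read as FPKM, the unit of Cufflinks. The sources used here do not name the aligner, the annotation or the strand of the kit, so reads of paralogs, overlapping genes or antisense partners cannot be told apart, which matters for near-identical zinc-finger genes. FPKM keeps no totals; relative depth came from the most frequent ratio of low values between libraries (for PE replicate 2, 30 of 217 features held it), and absolute depth is unknown.

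Features averaging 1 FPKM or more (10359 of 13843) were fitted on log2(FPKM + 1), pseudocount 1 FPKM, with limma 3.58.1 and trend in R 4.3.3, 1 mean per group over all 6 libraries (3 residual and 3.27 prior degrees of freedom). Sharing the spread lets each comparison draw on the third group. P-values are two-sided, adjusted by Benjamini and Hochberg over all features within each comparison, with a threshold of 0.05. Fold changes on this scale understate changes of low genes. The fit was tested on simulated data with the same noise in every library, so that test does not cover the shallow PE replicate 2. No scaling was added.

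The Zfp features and the gene lists were chosen with earlier results of these data known. Named members were those past the threshold, the 4 largest rises and falls per comparison with separate groups and a higher group of at least 3 FPKM, the 6 highest, the 3 steadiest with a mean of at least 3 FPKM, the 3 on each side of the limit, symbols on several rows and members of role lists; others are said to be chosen later or are neighbours on the chromosome. Of the 150 symbols, 142 matched a current and 8 an older RefSeq symbol in GRCr8. That assembly differs from rn6 and was used only for names, gene order and promoter sequence. Alternatives changed the pseudocount, filter, scaling, trend, groups fitted, replicate block, repeated symbols and each library in turn.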

Additional observations from a re-analysis of the deposited data

How the results depend on the processing

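With 2 libraries a group, few calls are stable. The 1 Zfp feature past the adjusted threshold in PE+TSA against PE became 0 with a pseudocount of 0.1 or 0.5 FPKM, without a filter, with a filter of 5 FPKM, in limma without trend and with the compared groups only; the count at an unadjusted p under 0.05 was 10 instead of 16 with the filter of 5 FPKM. In PE+TSA+shJIP1 against PE the count was 5 in the main fit. It was 3 with a pseudocount of 0.1 FPKM, 1 without a filter, 3 without trend and 0 with the compared groups only. These counts include members other than the 5 of the main fit. Of those 5, only Zfp414 and Zfp575 passed with a pseudocount of 0.1 FPKM and without trend, and none passed without a filter. Quantile normalization moved the median change of the Zfp features to -0.04 in PE+TSA against PE and 0.033 in PE+TSA+shJIP1 against PE. The cause of these shifts was not tested.

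Leaving out 1 library at a time gave 0 to 1 Zfp features past the adjusted threshold in PE+TSA against PE, 0 to 0 in PE+TSA+shJIP1 against PE+TSA and 0 to 5 in PE+TSA+shJIP1 against PE. Over all features these counts ran from 6 to 203, 7 to 16 and 4 to 941, against 84, 30 and 857 with all libraries. The count of Zfp features at an unadjusted p under 0.05 ran from 5 (without PE+TSA replicate 2) to 30 (without PE replicate 1), from 2 (without PE+TSA replicate 2) to 13, and from 16 (without PE replicate 2 or PE+TSA+shJIP1 replicate 2) to 37 (without PE replicate 1); over all features they ran from 982 to 2550, 928 to 1803 and 1934 to 3412. The median changes of the Zfp features ran from 0.037 to 0.143, from -0.004 to 0.028 and from 0.098 to 0.219. A group left with 1 library was assumed to vary like the others.

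The labels number the replicates in each group. Same-numbered libraries deviated together at correlations of 0.074 (PE and PE+TSA), 0.04 (PE and PE+TSA+shJIP1) and 0.122 (PE+TSA and PE+TSA+shJIP1) over 10359 features. With 2 libraries a group, and PE replicate 2 shallow, these values cannot show whether the numbers mark pairs. A fit with the replicate block gave 0, 0 and 4 Zfp features past the threshold and 19, 17 and 26 at an unadjusted p under 0.05 in the 3 comparisons. The medians with the replicate block were 0.114, 0.028 and 0.148.

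The log2 changes of named members under alternatives were judged in 2 ways. Direction and side of the threshold were judged only for members named in that comparison for a call or a largest change. Among these 63 lost a call, 7 gained one and 0 reversed. The other values were judged only by whether they moved by less than their SE in the main fit, and 65 moved. By these rules together 2199 values stayed the same. Depth limits the low members most: in PE replicate 2 the lowest value above 0 of an expressed Zfp feature was 0.579 FPKM.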

Other observations

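The values of 3 more Zfp genes, picked after they were seen, are given here; none passed the adjusted threshold in any comparison. Zfp955a was at 9.36 and 8.21 FPKM in PE+TSA+shJIP1, 17.0 and 17.9 FPKM in PE+TSA, and 11.1 and 7.64 FPKM in PE. Its PE+TSA libraries stood above the other 4, with a log2 change of -0.92 ± 0.26 in PE+TSA+shJIP1 against PE+TSA (limma adjusted p = 0.202) and 0.85 ± 0.26 in PE+TSA against PE (adjusted p = 0.173); these comparisons share the PE+TSA libraries. Zfp365 was at 17.0 and 11.4 FPKM in PE+TSA+shJIP1, 14.5 and 10.8 FPKM in PE+TSA, and 7.46 and 3.62 FPKM in PE (log2 change in PE+TSA+shJIP1 against PE 1.26 ± 0.38, adjusted p = 0.0887). Zfp710 was at 10.1 and 9.35 FPKM in PE+TSA+shJIP1, 15.4 and 17.2 FPKM in PE+TSA, and 15.7 and 16.3 FPKM in PE, so that its hairpin libraries were the lowest of the 6 (adjusted p = 0.0991 against PE).

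The symbols Zfp772 and Zfp978 are listed apart but point to the same current RefSeq gene in GRCr8. Zfp772 was at 1.63 and 1.78, 2.2 and 1.5, and 2.33 and 1.98 FPKM in PE+TSA+shJIP1, PE+TSA and PE, and Zfp978 at 3.19 and 4.01, 3.65 and 4.72, and 1.76 and 3.67 FPKM.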
